A study of Mus musculus with 6 samples.

Results

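The 7 mouse genes of the Fos and Jun families, Fos, Fosb, Fosl1, Fosl2, Jun, Junb and Jund, were read from a table of 19353 genes in mesenchymal stem cells of mouse bone marrow during osteogenic induction. The members were chosen by name, and each name matched 1 row. Mesenchymal stem cells are stromal cells of the marrow that can be driven towards bone-forming cells in culture. All 6 libraries came from purified primary wild-type (WT) mouse cells given a bone-inducing medium that held 100 nM dexamethasone, 10 mM β-glycerophosphate, 50 µM ascorbic acid and 10% serum. The MCH group (3 libraries) also received melanin concentration hormone, a peptide known as a signal of hypothalamic neurons, at 0.5 µM. The Control group (3 libraries) did not. The sample titles give day 9 and the series design gives day 8 of induction. The animals' age and sex, and the time between the last medium change and harvest, were not given in the sources used here. Since no label ties a replicate to its own animal or culture, the p-values rest on the spread among these libraries, and that spread may be technical.

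Fos and Jun proteins are basic leucine zipper factors that pair to form AP-1, a regulator of transcription. A Fos protein binds DNA as a heterodimer with a Jun protein, whereas Jun proteins can also pair with each other. Fos, Fosb, Jun and Junb are classic immediate early genes, transcribed within minutes of a stimulus from messages that decay fast, while Jund is expressed more steadily. In bone, Fos is known for its need in osteoclast formation, and Fosl1, Fosl2, Junb and the short form of FosB for roles in bone-forming cells.

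Members of both families fell with MCH. Of the 7 genes, 4 were lower (Fos, Fosb, Jun and Junb) and 0 were higher at an adjusted p under 0.05 in edgeR's quasi-likelihood test with Benjamini-Hochberg adjustment over 13662 genes. Over all genes tested, 5.40% were lower, 3.64% were higher and 9.04% changed in either direction. No member was higher at an unadjusted p under 0.05, nor by DESeq2 or limma-voom. Fos and Fosb fell to 51.9% and 53.4% of their Control means, Junb to 67.8% and Jun to 78.8%. Fosl2, Fosl1 and Jund did not pass the threshold. In bulk RNA, fewer cells of a type that expresses a gene and less RNA per cell cannot be told apart.

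The sequences just upstream of the 4 genes that fell are shown because cAMP response elements and AP-1 sites there are a textbook route by which a stimulus, or AP-1 itself, acts on these genes. Each is the 250 bases before the gene's RefSeq start (GRCm38.p6, the build of the files), written 5′ to 3′ on the gene's strand. Capitals mark TGACG, the core of the cAMP response element bound by CREB and ATF factors, and TGACATCA, the AP-1-like site known from the Jun promoter. The windows are chr12:85473640-85473889 on the plus strand for Fos, and on the minus strand chr7:19310046-19310295 for Fosb, chr4:95052223-95052472 for Jun and chr8:84978749-84978998 for Junb.
Fos: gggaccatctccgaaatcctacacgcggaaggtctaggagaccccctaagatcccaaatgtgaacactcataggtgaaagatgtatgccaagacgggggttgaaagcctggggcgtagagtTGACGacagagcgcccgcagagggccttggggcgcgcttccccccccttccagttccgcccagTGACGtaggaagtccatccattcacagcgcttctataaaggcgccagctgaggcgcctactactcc
Fosb: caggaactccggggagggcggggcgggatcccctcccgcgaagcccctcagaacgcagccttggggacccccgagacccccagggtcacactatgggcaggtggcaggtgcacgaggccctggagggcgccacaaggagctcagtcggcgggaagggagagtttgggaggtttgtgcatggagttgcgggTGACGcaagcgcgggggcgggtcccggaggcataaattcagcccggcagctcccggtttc
Jun: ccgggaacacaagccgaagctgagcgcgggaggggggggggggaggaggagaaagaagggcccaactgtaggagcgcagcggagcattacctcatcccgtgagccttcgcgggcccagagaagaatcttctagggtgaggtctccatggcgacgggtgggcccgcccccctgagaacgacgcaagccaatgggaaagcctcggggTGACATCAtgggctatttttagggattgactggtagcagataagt
Junb: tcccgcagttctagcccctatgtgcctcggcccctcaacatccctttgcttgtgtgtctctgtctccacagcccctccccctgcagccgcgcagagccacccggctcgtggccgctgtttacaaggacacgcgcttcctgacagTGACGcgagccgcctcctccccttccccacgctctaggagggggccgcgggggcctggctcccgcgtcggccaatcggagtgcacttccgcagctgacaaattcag

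The TGACG core lay 129 and 66 bases before the start in Fos, 60 bases before it in Fosb and 106 bases before it in Junb, counted to its leftmost base. It was not in the windows of Jun, Jund or Fosl2. The Jund window ends at 70697738, whereas M21 starts Jund farther downstream, at 70698949. The Fosl2 window, 32136222-32136471, lies inside the deposited locus, which starts at 32135801. For Jund and Fosl2 the result therefore holds for the RefSeq start alone. Of 32851 mouse promoter windows of the same length, 17.8% held TGACG on either strand. The Jun window held TGACATCA 45 bases before the start, which 2.93% of windows held and no other member's window did. The full palindrome TGACGTCA (1.55% of windows, and counted again as TGACG), the AP-1 consensus TGANTCA (6.75%) and the CArG box of serum response factor (1.47%) were in none of the 6 windows searched, on either strand. TATAAA was found only in Fos, 33 bases before the start, against 12.4% of windows. These matches describe letters in a window and do not show binding, and no letters missing from a window bear on a factor. Fosl1 was not searched.

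Fos (ENSMUSG00000021250) lies on chromosome 12 at 85473890-85477273 of GRCm38, on the plus strand, and M21 of GENCODE gives it 4 exons. It encodes the founding Fos protein. Its values in TMM-scaled CPM, counts relative to library size, were 84.2, 64.9 and 69.6 in MCH replicates 1, 2 and 3. In Control replicates 1, 2 and 3 they were 134, 145 and 142. Every MCH library lay below every Control library, and the highest MCH value was that of replicate 1. The means were 72.9 ± 10.0 with MCH and 141 ± 6.16 in Control (SD, n = 3 each). The log2 fold change, MCH minus Control, was -0.95 ± 0.10 (SE; 95% interval -1.18 to -0.71; edgeR adjusted p = 0.0025), and Fos ranked 85th of 13662 genes by p. The call was kept in all 6 fits with 1 library left out, with log2 fold changes of -1.06 to -0.87.

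Fosb (ENSMUSG00000003545) lies on chromosome 7 at 19302721-19310045 on the minus strand. It encodes FosB and, by alternative splicing, a shorter form that lacks the end of the protein and is long-lived. Its CPM was 25.2, 26.3 and 24.2 with MCH against 46.1, 49.6 and 46.1 in Control. The groups were far apart relative to their spread, with means of 25.2 ± 1.08 and 47.3 ± 2.06 (SD, n = 3 each). The log2 fold change was -0.91 ± 0.08 (SE; 95% interval -1.08 to -0.73; edgeR adjusted p = 0.000922), which ranked 46th by p. This call also was kept in 6 of 6 fits with 1 library left out. Counts per gene do not separate the 2 protein forms.

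Fosl2 (ENSMUSG00000029135; chromosome 5, 32135801-32157842, plus strand) encodes Fra-2, a Fos-related protein that is induced later and lasts longer than Fos. Its CPM was 312, 274 and 289 with MCH and 328, 381 and 375 in Control. The groups did not overlap, but MCH replicate 1 and Control replicate 1 were close to each other. The log2 fold change was -0.31 ± 0.08 (SE; 95% interval -0.49 to -0.12), and the edgeR adjusted p of 0.0540 lay just above the threshold. Leaving out replicate 1 of MCH gave an adjusted p of 0.0350, and of Control 0.0400. With the trend on GC content and transcript length removed, the log2 fold change shrank to -0.11.

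Fosl1 (ENSMUSG00000024912; chromosome 19, 5447703-5455945, plus strand) encodes Fra-1, a member that AP-1 itself is known to induce. Its CPM was 125, 136 and 136 with MCH and 139.8, 135 and 142 in Control, so the groups overlapped. The log2 fold change was -0.07 ± 0.06 (SE; 95% interval -0.21 to 0.07; edgeR adjusted p = 0.485). The interval leaves out a fall of the size seen in Fos or Fosb. Ccdc85b, on the opposite strand, overlaps the Fosl1 locus over 2766 bases and had 484 to 752 counts per library. The strand setting of the counting was not given in the sources used here, so reads of an overlapping pair cannot be told apart.

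**Figure D1:**
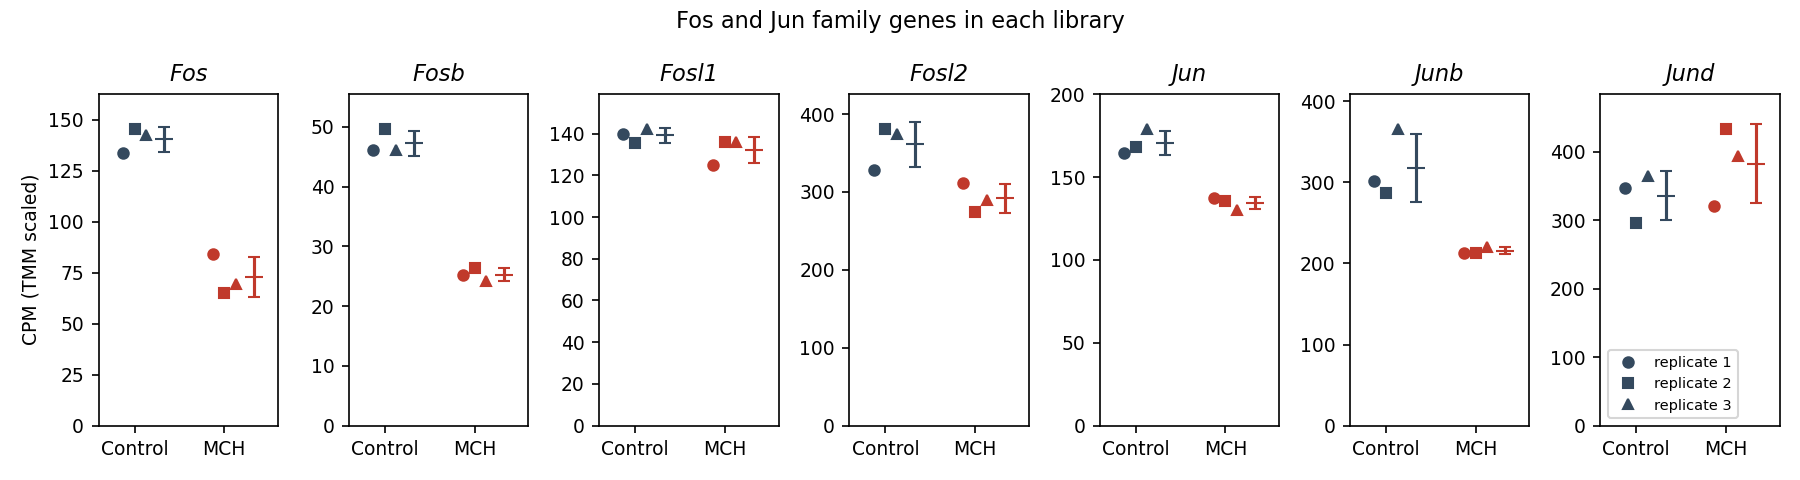
TMM-scaled CPM (y axes, each from 0) of the 7 genes in each library, with Control in dark blue and MCH in red. Symbols mark the replicate number, and the bar beside each group is the mean ± SD (n = 3). The groups are apart in Fos, Fosb, Fosl2, Jun and Junb and overlap in Fosl1 and Jund.

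On the Jun side, Junb showed the largest fall. Junb (ENSMUSG00000052837; chromosome 8, 84976909-84978748, minus strand) is a gene with no intron whose protein can both activate AP-1 sites and oppose c-Jun. Its CPM was 213, 213 and 221 with MCH against 301, 287 and 366 in Control. The MCH libraries lay close together and all below Control, where replicate 3 stood highest. The means were 216 ± 4.39 and 318 ± 41.8 (SD, n = 3 each), and the log2 fold change was -0.56 ± 0.09 (SE; 95% interval -0.78 to -0.34; edgeR adjusted p = 0.0132). Without MCH replicate 3 the adjusted p was 0.0570, and the call was kept in the other 5 of the 6 fits. Prdx2, on the opposite strand with 6802 to 8257 counts, overlaps the M21 span of Junb by 351 bases but not the locus that the table gives.

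Jun (ENSMUSG00000052684; chromosome 4, 95049034-95052222, minus strand), which encodes c-Jun, the strongest activator among the Jun proteins, changed less. Its CPM was 138, 135 and 130.2 with MCH and 165, 168 and 179 in Control. No MCH library reached the lowest Control library. The means were 134 ± 3.74 and 171 ± 7.43 (SD, n = 3 each), with a log2 fold change of -0.34 ± 0.06 (SE; 95% interval -0.48 to -0.21; edgeR adjusted p = 0.0142). The call was kept in 3 of 6 fits with 1 library left out. It was lost without MCH replicate 2 (adjusted p = 0.0510), MCH replicate 3 (0.0787) or Control replicate 3 (0.0588). Junos, which overlaps Jun on the opposite strand by 689 bases, had 31 to 52 counts against 2245 to 3210 for Jun.

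Jund (ENSMUSG00000071076; chromosome 8, 70697739-70700616, plus strand) encodes JunD, the steadily expressed Jun protein. Its CPM was 321, 433 and 394 with MCH and 347, 296 and 365 in Control. The groups overlapped because MCH replicate 1 was lower than Control replicates 1 and 3. The log2 fold change was 0.19 ± 0.13 (SE; 95% interval -0.11 to 0.48; edgeR adjusted p = 0.387). Jund was the only member with a fitted value above 0, and it stayed above 0 in the 6 leave-one-out fits (0.09 to 0.30), none of which called it.

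In CPM, 5 of the 7 genes had groups that did not overlap, all 5 lower with MCH. Over all genes tested, 16.6% had non-overlapping groups that were lower and 16.1% had groups that were higher. Leaving out MCH replicate 3 gave 2 members lower instead of 4, and the other 5 such fits gave 3 to 5. The same library moved the count over all genes, from 738 lower to 256, as did MCH replicate 2 (342) and Control replicates 2 (307) and 3 (306). The authors' deposited table gives q-values of 6.40e-07 for Fos, 8.61e-05 for Fosb and 0.00826 for Junb. In the authors' deposited table Jun has a q-value of 0.184, Fosl2 0.320, Jund 0.734 and Fosl1 0.941, and none of the 7 is marked as changed.

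**Figure D2:**
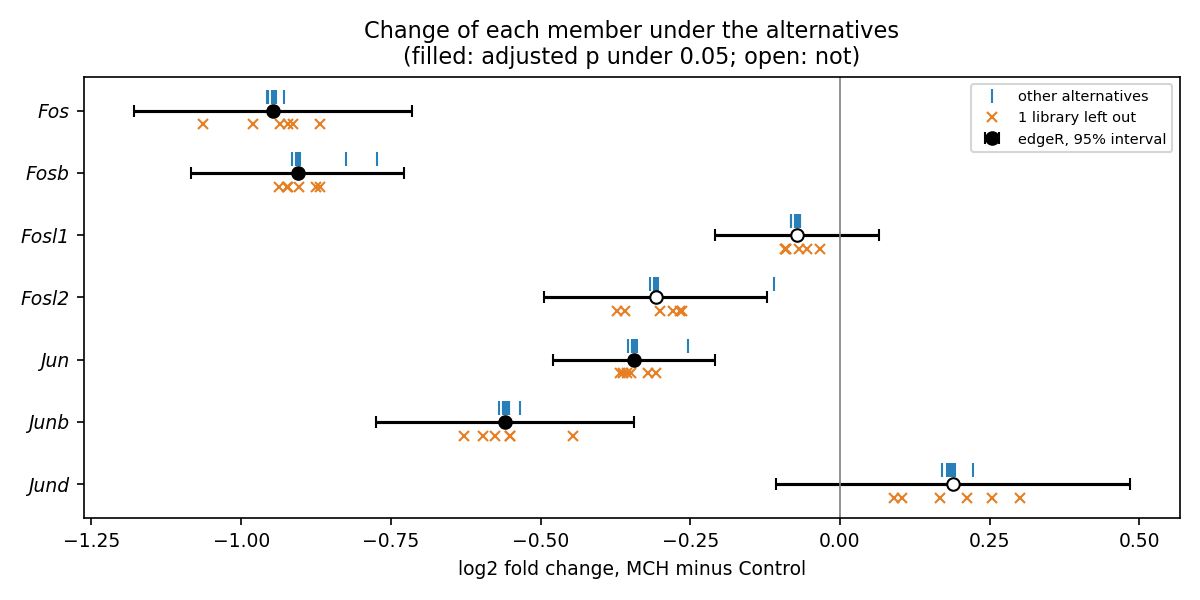
Log2 fold change, MCH minus Control (x axis), of each gene with its 95% interval, filled where the adjusted p was under 0.05. Blue ticks are the other alternatives and orange crosses the 6 fits with 1 library left out. Fos and Fosb stay between -1.06 and -0.77 throughout, and the tick of Fosl2 nearest to 0 (-0.11) is the fit with the GC and length trend removed.

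The members' changes differed in size. Ratios of counts between 2 members within a library do not depend on the scaling of libraries, and 9 pairs were compared with two-sided exact permutation tests (0.5 added to each count). With 3 libraries against 3, p cannot go below 0.1, so no pair could pass the threshold, and an adjusted p of 0.129 over the 9 pairs was the value for every pair with separate groups. The log2 ratio of Fos to Fosb was 1.74, 1.30 and 1.52 with MCH and 1.54, 1.55 and 1.63 in Control. These groups overlapped, with a mean difference of -0.05 (exact permutation p = 0.7), and without MCH replicate 2 the difference was 0.061. The 2 genes thus fell by amounts that these libraries do not separate.

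Fos was lower relative to the Fos-related genes in every MCH library. Its log2 ratio to Fosl2 was -1.89, -2.08 and -2.05 with MCH and -1.29, -1.39 and -1.39 in Control, a difference of -0.65 (exact permutation p = 0.1). Fosb against Fosl2 gave a difference of -0.60 and Fos against Fosl1 one of -0.88, both with groups that did not overlap (exact permutation p = 0.1 each). Fosl1 against Fosl2 differed by 0.23, with overlapping groups (exact permutation p = 0.2, adjusted p = 0.225).

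The log2 ratio of Fos to its partner Jun was -0.71, -1.06 and -0.90 with MCH and -0.30, -0.21 and -0.33 in Control, a difference of -0.61 (exact permutation p = 0.1). Among the Jun genes, the log2 ratio of Junb to Jund was -0.59, -1.02 and -0.84 with MCH. It was -0.20, -0.04 and 0.00 in Control, so the 2 genes had near-equal counts there and Jund had the more with MCH, a difference of -0.73 (exact permutation p = 0.1). Jun against Jund differed by -0.53 and Jun against Junb by 0.21, again with separate groups (exact permutation p = 0.1 each).

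**Figure D3:**
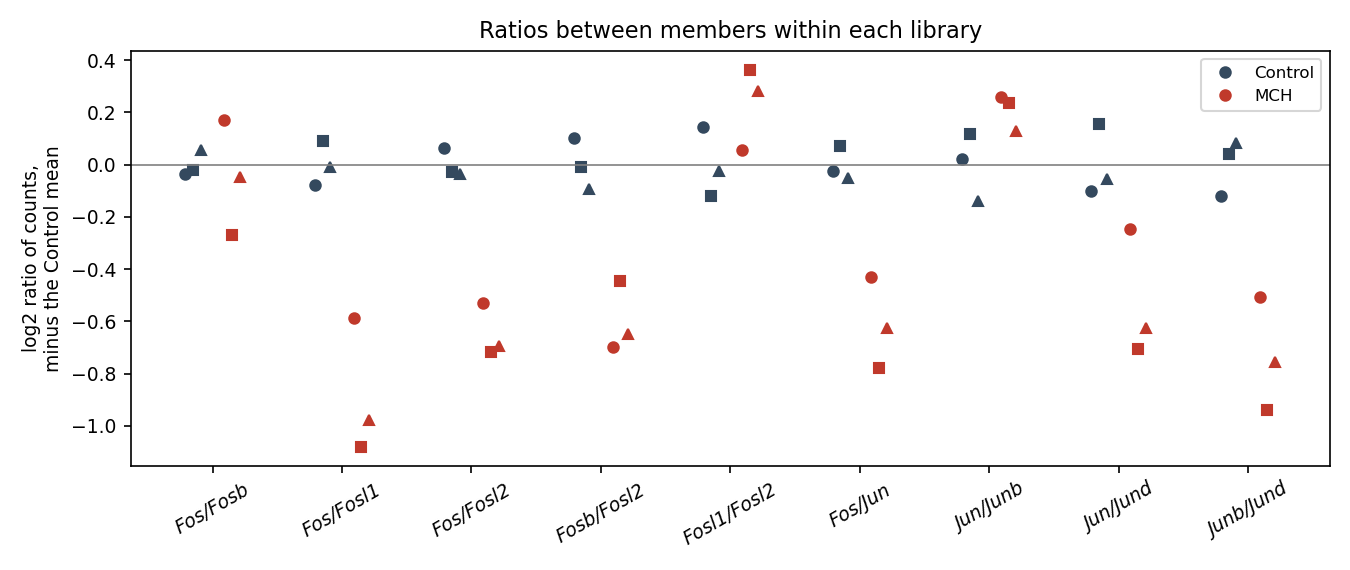
Log2 ratio of counts between 2 members in each library, minus the Control mean of that ratio (y axis), for 9 pairs; circles, squares and triangles are replicates 1, 2 and 3. The MCH libraries (red) lie apart from Control (dark blue) in every pair but Fos/Fosb and Fosl1/Fosl2.

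Levels between genes were compared per length of transcript. In the deposited FPKM (reads scaled to gene length and library size), Control means ran in the order Junb (173 ± 23.2), Jund (117 ± 11.8), Fosl1 (81.7 ± 1.86), Jun (53.6 ± 2.81), Fos (37.2 ± 2.22), Fosl2 (31.2 ± 2.98) and Fosb (12.6 ± 0.715; SD, n = 3 each). With MCH the FPKM means were 132 ± 17.4 for Jund and 117 ± 2.74 for Junb, followed by Fosl1 (77.1 ± 2.25), Jun (42.0 ± 1.76), Fosl2 (25.03 ± 2.14), Fos (19.2 ± 3.03) and Fosb (6.70 ± 0.274). In the deposited FPKM, Junb stood above Jund in each Control library, whereas with MCH their values overlapped. Fos stood above Fosl2 in each Control library and below it in each MCH library. All 7 genes lay above the median FPKM of the genes tested in both groups. Control Fosb lay at the 74.6th percentile and Control Junb at the 98.0th. With MCH, Fosb lay at the 61.2nd percentile and Jund at the 97.4th.

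The deposited FPKM of Fos, Fosl2 and Jund use lengths far greater than those of their M21 coding transcripts. The length that the deposited counts and FPKM imply is 3792 bases for Fos, which is more than its whole locus of 3384 bases and 1.80 times its coding transcript of 2108 bases. For Fosl2 it is 11608 bases against a transcript of 6537 bases. For Jund it is 2878 bases, the length of its deposited locus, against an M21 transcript of 1668 bases. CPM per kilobase of 1 transcript was therefore computed as well, a step added after seeing these lengths. For Jun, Junb and Jund, which have 1 exon each, the deposited locus length was used, so Jund kept 2878 bases. A shorter length would raise Jund in both groups, so its place relative to Junb rests on this choice. On that scale the Control order was Junb (173), Jund (117), Fosl1 (74.6), Fos (66.7), Fosl2 (55.2), Jun (53.5) and Fosb (12.5). With MCH it was Jund (133), Junb (117), Fosl1 (71.0), Fosl2 (44.6), Jun (42.1), Fos (34.6) and Fosb (6.67), so Fos moved from above Jun to below it. Fosl2 and Jun did not differ beyond their spread in either group.

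The make-up of the family differed between the groups. In FPKM the 7 genes summed to 419 ± 11.2 with MCH and 507 ± 38.4 in Control (SD, n = 3 each). The 4 Fos genes made up 30.6 ± 1.59% of that sum with MCH and 32.2 ± 2.13% in Control, values that overlapped. Within the Fos genes, Fos and Fosb together held 22.4%, 18.95% and 19.2% of the FPKM with MCH and 30.1%, 31.5% and 30.1% in Control. Per kilobase of 1 transcript that share was 26.3 ± 2.26% against 37.9 ± 0.613% (SD, n = 3 each), so the groups differed on both scales. Within the 3 Jun genes, Jund held 41.2%, 48.7% and 46.0% with MCH and 35.9%, 32.99% and 33.3% in Control. MCH replicate 1 lay nearest to Control in both shares. The Jund shares rest on a length of 2878 bases for Jund, and a shorter one would raise them in both groups.

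**Figure D4:**
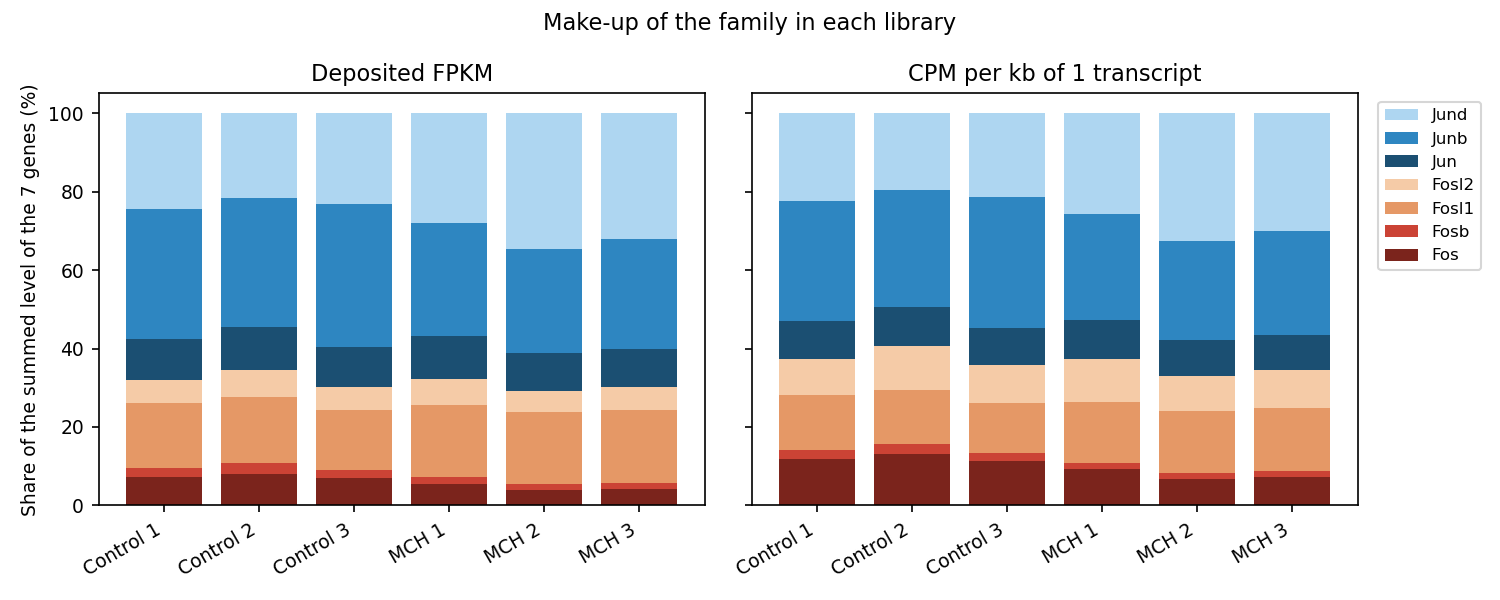
Share of each gene in the summed level of the 7 genes in each library (y axis, percent), from the deposited FPKM on the left and from CPM per kilobase of 1 transcript on the right. Both sides use the deposited locus length for Jun, Junb and Jund. The Fos and Fosb segments (reds) are thinner and the Jund segment (pale blue) thicker in the MCH libraries.

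Genes around the family were counted in lists chosen by role, with earlier results of these data known. The counts therefore describe these data and give no independent support. Over all genes tested, 5.40% were lower and 3.64% higher, and 1 or 2 calls in a short list say little beside those shares. Of 14 other leucine zipper factors that can pair with Fos or Jun, 11 could be tested, and 1 was lower and 0 higher (median log2 fold change -0.20, against 0.00 over all genes tested). No partner was higher at an unadjusted p under 0.05, nor by DESeq2 or limma-voom. The count of lower partners was 0 without MCH replicate 3 or Control replicate 3, and 2 without MCH replicate 1. The most abundant partners, Maff and Mafg, had log2 fold changes of -0.09 ± 0.06 and -0.23 ± 0.08 (SE) and did not pass.

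MAP kinases, their upstream kinases and their RSK and MSK targets carry signals to AP-1. Of 22 tested, 1 was lower and 0 were higher, with a median of 0.02, a share near the 5.40% of all genes that were lower. At an unadjusted p under 0.05, 1 of these was higher, as was 1 by DESeq2 and 0 by limma-voom. Mapk3, which encodes ERK1, had a log2 fold change of -0.28 ± 0.07 (SE; edgeR adjusted p = 0.0499) and kept that call in 0 of the 6 leave-one-out fits. Map2k1 and Map2k2, which encode the kinases of ERK, had values of 0.02 ± 0.06 and 0.36 ± 0.11 (SE) and did not pass. Transcript levels do not report kinase activity.

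Of 14 factors known to act on the Fos and Jun promoters, 4 were lower and 0 higher, with a median of -0.30. None was higher at an unadjusted p under 0.05, by DESeq2 or by limma-voom. The 4 were Mef2d (-0.44 ± 0.06), a MADS-box factor of the Jun promoter, the CREB coactivator Crtc3 (-0.43 ± 0.08), the serum response factor coactivator Mrtfa (-0.47 ± 0.09) and Stat3 (-0.40 ± 0.07), given as log2 fold change ± SE. Mef2d (edgeR adjusted p = 0.00584) was called in 6 of 6 fits with 1 library left out. The count of lower factors was 1 when any of MCH replicate 3 and Control replicates 2 and 3 was left out. Elk3 (-0.23 ± 0.06) and Srf (-0.06 ± 0.07), the most abundant of those that did not pass, were below 0 in the fit.

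Factors of Fos and Jun turnover gave 2 lower and 0 higher of 10 (median -0.08), beside 5.40% lower and 3.64% higher over all genes tested. The 2 were Zfp36 (-0.45 ± 0.07, SE; edgeR adjusted p = 0.00964) and Zfp36l1 (-0.62 ± 0.07, SE; edgeR adjusted p = 0.00300), which encode proteins that bind AU-rich elements and speed the decay of such messages. At an unadjusted p under 0.05, 1 gene of the list was higher, as by DESeq2, and 0 were by limma-voom. Zfp36l2 and Khsrp, the most abundant that did not pass, had values of -0.31 ± 0.10 and -0.15 ± 0.08 (SE). Zfp36 without MCH replicate 3 had an adjusted p of 0.0570.

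The pentamer AUUUA, the core of AU-rich elements, was counted in each member's 3′ UTR of M21. Fos held 4 in 815 bases, Junb 2 in 485 bases and Jun 4 in 1233 bases, which placed them at the 93.2nd, 89.9th and 82.9th percentile of AUUUA per kilobase among 12280 tested genes. Fosb, which fell as far as Fos, held 1 in 2145 bases (36.3rd percentile). Fosl2 held 8 in 4653 bases, Fosl1 1 in 638 bases and Jund 1 in 533 bases (60.8th, 57.7th and 63.7th percentile). These counts are a description, and their relation to the changes was not tested.

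Among 24 other immediate early genes, 3 were lower and 0 higher (median -0.19). At an unadjusted p under 0.05, 10 were lower and 2 higher. DESeq2 called 2 higher and limma-voom 1. The share of all genes under the unadjusted threshold was not counted, so the unadjusted counts have no background beside them. In the same edgeR test Fosl2, at an unadjusted p of 0.00523, ranked only 1322nd of 13662 genes, so many genes pass 0.05. Egr1, a zinc finger factor induced beside Fos, was at 124 ± 6.24 CPM with MCH and 179 ± 7.58 in Control (SD, n = 3 each; log2 fold change -0.53 ± 0.06, SE; edgeR adjusted p = 0.00364). Nr4a1, an orphan nuclear receptor, and Ccn2, a matricellular protein gene, fell by 0.41 ± 0.07 and 0.30 ± 0.07 (SE) on the log2 scale. The most abundant of those that did not pass were Ccn1 (0.26 ± 0.07) and Ier3 (-0.03 ± 0.06). Leaving out any of MCH replicates 2 and 3 and Control replicates 2 and 3 gave a count of 1.

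Textbook targets of AP-1 moved in both directions. Of 20, 7 were lower and 2 higher, with a median of -0.15. Both that rose kept their call in 6 of 6 fits with 1 library left out: the chemokine gene Ccl2 (0.68 ± 0.06; edgeR adjusted p = 0.00130) and the cell cycle gene Ccnd1 (0.55 ± 0.06; edgeR adjusted p = 0.00335; log2 fold change ± SE). The fibronectin receptor subunit Itga5 had a log2 fold change of -0.44 ± 0.06 and the matrix protease gene Mmp9, which also fell, one of -1.024 ± 0.16 (SE). The other 5 that fell, named after their values were seen, were Mmp3, Mmp10, Mmp13, Il6 and Clu, with log2 fold changes of -1.36 (Mmp13) to -0.51 (Mmp3). Leaving out MCH replicate 3 gave 1 lower target, and leaving out either of Control replicates 2 and 3 gave 3. Hmox1 and Timp1, the most abundant that did not pass, had values of -0.10 ± 0.06 and 0.26 ± 0.13 (SE).

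Of 9 testable genes of bone matrix and coupling tied to Fos or Jun proteins in bone cells, 7 were lower and 0 higher (median -1.06). None was higher at an unadjusted p under 0.05, by DESeq2 or by limma-voom. The osteopontin gene Spp1 fell from 1050.1 ± 20.2 to 502 ± 13.4 CPM, and Mgp, a gene for an inhibitor of mineralization, from 134 ± 22.02 to 25.2 ± 2.31 CPM (SD, n = 3 each). Alpl, the alkaline phosphatase of early osteoblasts, fell by 1.28 ± 0.08 on the log2 scale, and Tnfsf11, the gene of RANKL, fell by 2.32 ± 0.28 (SE). Runx2 (-0.24 ± 0.07, SE; edgeR adjusted p = 0.0822) and Il11 (-0.87 ± 0.24, SE; edgeR adjusted p = 0.0680) did not pass. The count was 4 without MCH replicate 3. Mmp13 is in this list and in that of AP-1 targets, and Col1a1, Col1a2, Alpl and Runx2 are also in the list of stromal markers.

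**Figure D5:**
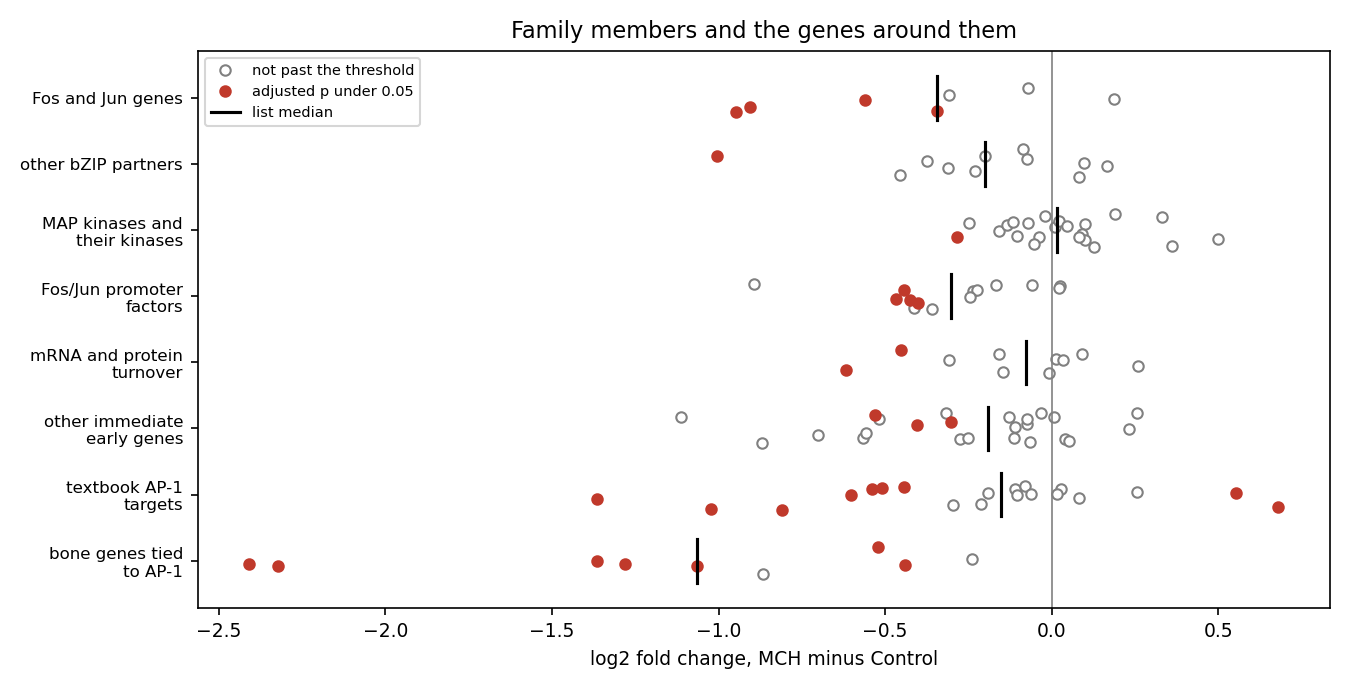
Log2 fold change, MCH minus Control (x axis), of each tested gene in the 8 lists, with filled red points where the adjusted p was under 0.05 and a black bar at the list median. Medians run from -1.06 for the bone genes to 0.02 for the MAP kinases.

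Library totals ran from 16521980 to 18803949 counts, and members had 417 (Fosb) to 7682 (Jund) counts per library. Of the MCH libraries, replicate 1 was the closest to Control (-10.9 on the first principal component, against -32.3 and -24.8 for them and 18.9 to 25.5 for Control), and without it Fos changed by -1.06. Stromal genes differed widely in level. Col1a1, Col1a2 and Pdgfra had at least 1805 counts per library. Of the same list, Lepr had 5 to 20 counts, Thy1 36 to 59, Nt5e 81 to 179 and Eng 150 to 200. The osteoblast genes Sp7 and Bglap had at most 4 counts. Of 15 tested stromal and osteoblast markers 7 were lower and 0 higher, and their summed CPM was 9344 to 10376 with MCH and 13913 to 15011 in Control. At an unadjusted p under 0.05, 1 of them was higher, as by DESeq2, and 0 were by limma-voom. Macrophage markers summed to 141 to 187 CPM with MCH and 172 to 177 in Control, with 1 of 6 tested lower (Cd14) and 0 higher, 4 of 6 above 0 and a median log2 fold change of 0.43. At an unadjusted p under 0.05, 1 of them was higher, as by DESeq2, and 0 were by limma-voom. Of the defining genes, Ptprc and C1qa had 0 to 3 counts. Adgre1, C1qb and C1qc reached 50, 31 and 27 counts in an MCH library and at most 11, 9 and 1 in Control. Granulocyte (3 tested) and endothelial (2 tested) markers gave 0 calls, also at an unadjusted p under 0.05, by DESeq2 and by limma-voom, 1 lymphocyte gene (Cd3e) was higher, and no erythroid gene could be tested. Heat shock genes, listed as a measure of handling, summed to 2033 to 2319 CPM with MCH and 2003 to 2151 in Control. Of 8 tested, 1 was lower (Bag3) and 0 higher, with 5 above 0 and 3 below. Over all genes tested, 5.40% were lower, so 1 call among the heat shock genes or macrophage markers says little about those lists. At an unadjusted p under 0.05, 3 heat shock genes were higher, as were 2 by DESeq2 and 0 by limma-voom. The share of all genes under that unadjusted threshold was not counted. Of 3 tested nuclear RNAs, listed as a measure of RNA quality, 2 were lower (Malat1 by 0.68 ± 0.14 and Neat1 by 0.55 ± 0.07, log2 ± SE), beside -0.56 for Junb. The part of these differences in the members' falls was not tested.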

How the data were processed

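Polyadenylated RNA of 6 libraries (3 MCH, 3 Control) was sequenced. The library kit was VAHTS Universal V6, per the labels' protocols. Reads were placed on GRCm38 (also listed as mm10), per the submitters' processing notes. The deposited table gives read counts per gene, not normalized, and FPKM, per the file headers. Its p-values and q-values are the authors' own, per the file headers. The aligner, counter, annotation, strand setting and statistical test of the authors were not given in the sources used here. Names of the 3 Control columns do not say Control. They were taken as Control because they do not say MCH and there is no other group, and every direction rests on this.

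Counts were tested in edgeR 4.0.16 (R 4.3.3; TMM; filterByExpr at a count of 10 and a total of 15; robust quasi-likelihood fit on group; two-sided; Benjamini-Hochberg at 0.05), which kept 13662 genes and left out 5691. Each SE was taken as the unshrunken log2 coefficient over the root of the F statistic. Ratios used scipy 1.17.1. Symbols came from GENCODE M21 (19250 of 19353 IDs, 99.5%) and promoters from RefSeq (GRCm38.p6; 6 of 7 members matched). No 2 libraries within a group agreed within sampling noise (chi-square over degrees of freedom 14.9 to 25.3). DESeq2 1.42.0, limma 3.58.1 (voom, and log2(FPKM + 1)), RLE and upper-quartile scaling, other filters, a non-robust fit, a replicate block and leaving out libraries were alternatives. A correction for GC content and length, and CPM per kilobase, were added after seeing the data. The fit was tested on simulated counts, where the share of false calls exceeded the nominal threshold when each gene had its own spread.

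The members and lists were chosen with earlier results of these data known. Named genes are the 7 members and, per list, up to 4 called genes by smallest p and up to 2 abundant genes that did not pass. For each member that fell, the 3 genes nearest in profile are also named. For 1 gene that this rule takes, values are not reported here.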

Additional observations from a re-analysis of the deposited data

How the results depend on the processing

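Under all 16 alternatives run, Fos and Fosb stayed lower and past the threshold, and Fosl1 and Jund passed it under none. The count of genes higher and lower, 497 and 738, became 800 and 883 with DESeq2 and 1050 and 671 with the GC and length trend removed. It ran from 65 to 722 higher and 256 to 867 lower with 1 library left out. The same-numbered libraries did not deviate together (correlations -0.161, -0.0386 and -0.0138). With 3 libraries per group, this does not show whether the cultures were paired. With the replicate number as a block, 28 genes were higher and 151 lower, and 2 members lower, with Jun at -0.34 and Junb at -0.55 no longer past the threshold. The block left 0 lower partners, kinases, promoter factors, immediate early, heat shock and nuclear genes, 1 lower turnover gene, 1 lower target and 4 lower bone genes. Fosl2 passed with DESeq2 (-0.30) and with no filter (-0.31). With 1 library left out, 2 to 5 members were lower, Fosl2 ran from -0.37 to -0.26, Jun from -0.37 to -0.31, Junb from -0.63 to -0.45 and the Fos to Fosb difference from -0.16 to 0.061, reversed at 0.061 without MCH replicate 2. Counts of lower genes then ran from 0 to 2 for partners, 0 for kinases, 1 to 4 for promoter factors, 1 to 3 for turnover, 1 to 4 for immediate early genes, 1 to 7 for targets, 4 to 7 for bone genes, 0 to 1 for heat shock and 1 to 2 for nuclear RNAs, and counts of higher genes from 0 to 1 for kinases, turnover and heat shock. DESeq2 called 1 kinase, 1 turnover, 2 immediate early and 2 heat shock genes higher and 7 promoter factors lower. Removing the GC and length trend gave 1 kinase, 1 turnover, 2 immediate early and 1 heat shock gene higher, and 2 promoter factors and 1 nuclear RNA lower. RLE scaling, the CPM filter and limma on FPKM each gave 1 turnover gene higher, no filter 1 heat shock gene, and limma-voom 1 immediate early gene. Both limma-voom and the non-robust fit gave 0 kinases lower. The share of Fos and Fosb among Fos genes was 26.3% and 37.9% per kilobase. For the other 33 genes with alternatives, 435 of 528 values kept direction and side, 92 no longer passed, 1 newly passed and 0 reversed. Apart from fewer libraries in the leave-one-out fits, the cause of these changes was not tested. Adding 5 in place of 0.5 to each count kept the direction of all 9 ratios between members.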

Other observations

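The genes whose profile over the 6 libraries lay nearest to each member that fell were found among 12775 genes whose mean was 1 CPM or more, by the root mean square difference of centred log2 CPM. Nearest to Fos were 1200007C13Rik (0.0375), Pde8b (0.0484), which encodes a cAMP phosphodiesterase, and Lrp1 (0.0527), which encodes an endocytic receptor and fell from 1571 to 798 CPM. Fosb lay at 0.133 from Fos. Nearest to Fosb were the metalloprotease gene Adamts7 (0.0375), Ppp1r3c (0.0436), and Nfatc1 (0.0545), a factor known to act with AP-1, which fell from 33.6 to 18.5 CPM. Nearest to Junb were Akna (0.0508), Rab44 (0.0569) and Cyp2d22 (0.0579). Nearest to Jun were Zfp213 (0.00863), Arhgap31 (0.0130) and Pcif1 (0.0146), with Fosl2 the nearest of the other members (0.0771). With 6 libraries, such distances describe these libraries.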
